A study of Mus musculus with 16 samples.

Results

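To examine the earliest transcriptional response of kidney cells to high osmolality, RNA-seq counts were compared between mIMCD3 cells kept in isosmotic medium and mIMCD3 cells exposed to hyperosmotic stress for 1 h. mIMCD3 is a mouse cell line from the inner medullary collecting duct, the nephron segment that meets the highest osmolality in the body. Both groups were wild type (WT) and had received DMSO, the vehicle of the Nrf2 activator sulforaphane (SFN), for 5 h. The isosmotic group (2 libraries) was collected without stress and the 1 h group (2 libraries) after replacement of the medium with hypertonic medium of 600 mOsm. These 4 libraries are part of a series of 16 that also holds WT cells at 6 h of stress, WT cells given SFN at 10 µM, and an Nrf2-/- line. All genes passing an expression filter were tested, which were 18959 of the 55367 genes listed. Genes with a mean of at least 50 counts over the 4 libraries, 12200 in all, are called well counted below. The labels do not say whether the medium of the isosmotic cells was also changed, so fresh medium and high osmolality cannot be told apart. In bulk RNA, fewer cells of a type and less RNA per cell cannot be told apart either.

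Hypertonic medium draws water out of cells and concentrates their contents. Collecting duct cells answer over hours through NFAT5, a transcription factor that raises the genes for uptake or synthesis of organic osmolytes such as inositol, sorbitol, betaine and taurine, and for the chaperones of the Hsp70 family. Before that, stress commonly acts through MAP kinases on immediate-early genes, whose short-lived transcripts rise or fall within minutes, and hyperosmotic and heat stress are known to disturb the ending of transcription behind genes.

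The total counts were 40319167 and 43991410 in the isosmotic libraries and 41566500 and 35689266 in the 1 h libraries, within the range of the 16 libraries (34484296 to 50774875). The isosmotic pair varied more than the 1 h pair, with biological coefficients of variation of 0.109 and 0.0469. Of counts from 1 to 10, 61.8% to 65.2% were even in these 4 libraries, so low counts may not be independent fragments. Of 21 collecting duct and epithelial markers, 16 were well counted and 3 had at most 3 counts in both isosmotic libraries. Pax2, Pax8, Hoxb7, Krt7, Krt18 and Epcam were counted at 29.8 CPM (counts per 1000000 counts, scaled by library) or more in each isosmotic library, whereas the water channel gene Aqp3 had 4 and 2 counts. Of 22 markers of other kidney cells, 12 had at most 3 counts in both isosmotic libraries. Summed over the 22 and scaled by library totals alone, their level was 30.2 and 29.5 CPM before and 34.2 and 32.95 CPM at 1 h.

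At an adjusted p under 0.05 (edgeR), 2717 genes were higher at 1 h (14.3% of those tested) and 1617 were lower (8.53%). Among well counted genes, 1370 were higher (11.2%) and 1312 lower (10.8%), and most of these changes were small: 1200 of the increases and 1075 of the decreases were under 2-fold. Genes low before stress can be well counted through their 1 h counts, and 19 of the 1370 had at most 3 counts in each isosmotic library. Among the 12210 genes with a mean of 50 or more counts before stress, 1238 were higher and 1390 lower. Rises of at least 2-fold numbered 42 there, against 170 among the well counted genes. The median log2 fold change of the well counted genes was -0.02. The 6759 genes under 50 counts were called mainly upward, with 1347 higher and 305 lower. Fewer were higher without isosmotic replicate 2 (1328), 1 h replicate 1 (1565) or 1 h replicate 2 (1636), and with all 16 libraries in the fit (1385). Without 1 h replicate 1 and 2, 914 and 958 were lower. Among well counted genes the same omissions left 592, 710 and 666 higher, and 739 and 784 lower without 1 h replicate 1 and 2.

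**Figure D1:**
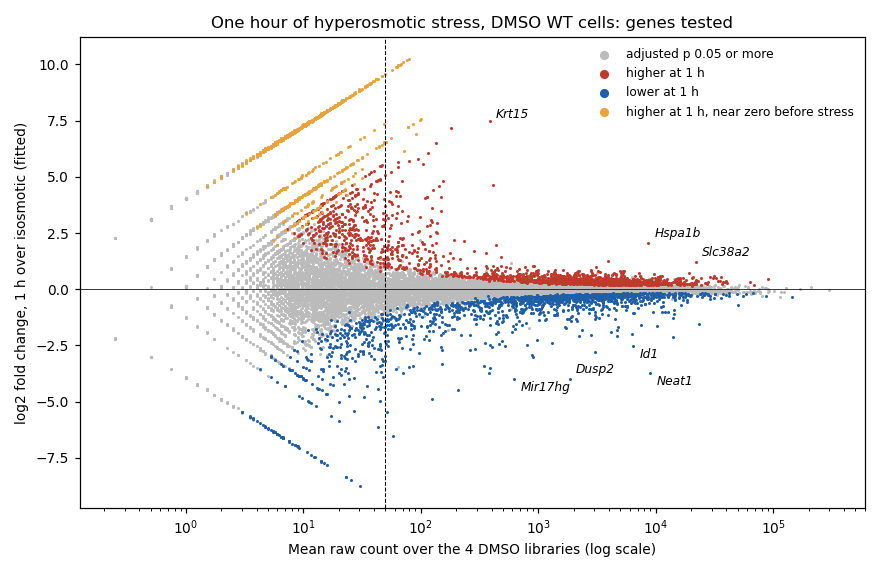
Fitted log2 fold change at 1 h over isosmotic (vertical axis) against the mean raw count over the 4 DMSO libraries (horizontal axis, log scale), 1 point per gene tested. The dashed line marks 50 counts. Orange points are genes that rose from at most 3 counts in each isosmotic library; the largest changes among abundant genes were falls, such as Neat1 and Id1, with Hspa1b as the main exception.

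The largest falls among well counted genes were of non-coding transcripts, several of which carry microRNAs. MicroRNAs are short RNAs that pair with target transcripts through a seed, bases 2 to 8 of the mature form, and they are cut from longer host transcripts. The mature RNAs were not measured here. RefSeq sequences (GRCm38.p6) of microRNAs from hairpins that overlap the transcripts described next are shown with the seed in capitals, to show which families these are. All but miR-34a-5p lie inside the named transcript; miR-34a-5p lies just before the start of Gm37795, which overlaps only the end of its hairpin.
mmu-miR-17-5p: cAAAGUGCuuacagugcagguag
mmu-miR-20a-5p: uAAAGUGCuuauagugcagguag
mmu-miR-19b-3p: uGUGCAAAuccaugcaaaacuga
mmu-miR-92a-3p: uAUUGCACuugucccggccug
mmu-miR-15a-5p: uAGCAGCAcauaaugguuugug
mmu-miR-16-5p: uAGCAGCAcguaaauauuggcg
mmu-miR-34a-5p: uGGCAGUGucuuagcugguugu
mmu-let-7i-5p: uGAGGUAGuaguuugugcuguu
mmu-miR-22-3p: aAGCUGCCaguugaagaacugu
mmu-miR-155-5p: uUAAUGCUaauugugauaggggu
The first pair, from Mir17hg, shares a seed, as does the pair miR-15a-5p and miR-16-5p from Dleu2. Mir17hg lies at chr14:115042879-115046727 on the plus strand, and mmu-miR-17-5p inside it at chr14:115043684-115043706.

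Mir17hg, the host of a microRNA cluster that promotes growth, stood at 24.4 and 28.9 CPM in the isosmotic libraries and at 1.45 and 1.91 CPM at 1 h (log2 fold change -3.998 ± 0.19 SE, adjusted p = 1.77e-10). Dleu2, host of miR-15a and miR-16, went from 15.4 and 13.7 CPM to 1.18 and 1.51 CPM (-3.44 ± 0.16, adjusted p = 5.73e-12). Both 1 h libraries were far below both isosmotic libraries for either gene. Gm37795, which overlaps the Mir34a hairpin, fell by 4.48 on the log2 scale, from 8.41 and 9.68 CPM to 0.453 and 0.345 CPM. D630033A02Rik, which holds let-7i, fell by 3.54, and Gm26621, which holds Mir30b, went from 121 and 107 counts to 0 and 2 counts. Mir22hg fell by 2.92 and Mir155hg by 2.43 on the same scale. At 6 h, Mir17hg was at 59.6 and 61.7 CPM and Gm37795 at 22.2 and 25.4 CPM, above their isosmotic levels, while Mir22hg was at 18.1 and 16.6 CPM, below its 34.6 and 36.9 CPM before stress.

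Counted over the annotation, 21 well counted genes that do not code for protein overlapped a microRNA gene on the same strand. Of these 12 were lower, none was higher by the edgeR test, and their median log2 fold change was -0.77. Of the 977 other well counted non-coding genes 140 were lower (14.3%), with a median of -0.12. Of 188 host genes that code for protein, 23 were lower (12.2%) and 32 higher, with a median of 0.01, although Spaca6, which overlaps Mir125a, fell from 1765 and 1452 counts to 214 and 154 counts (-3.03). Leaving out each library in turn gave 10 to 12 lower of the 21. This count by host was made after the falls of Mir17hg and other hosts had been seen.

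Nuclear lncRNAs and the host genes of snoRNAs, the guides of ribosomal RNA modification, also fell. Of the 17 tested on that list, 11 were lower and 1 higher (Xist, under 50 counts), with a median log2 fold change of -1.12 against 0.02 over all genes. Neat1, the scaffold of nuclear paraspeckles, was at 377 and 380 CPM before stress and at 27.6 and 29.3 CPM at 1 h (-3.74 ± 0.10, adjusted p = 3.51e-14), a 13.3-fold lower level. Snhg15 went from 30.4 and 32.0 CPM to 5.49 and 5.52 CPM (-2.50 ± 0.14). Both 1 h libraries of either gene lay below both isosmotic ones. Snhg20, Dancr and Snhg4 had log2 fold changes of -2.53, -2.45 and -2.40, Snhg17 -1.67, Snhg12 -1.28 and Snhg5 -1.12. The most abundant hosts fell less: Gas5 by 0.74 (153 and 176 to 104 and 93.9 CPM) and Snhg1 by 0.89 (77.8 and 90.7 to 46.9 and 44.1 CPM). By 6 h, Neat1 was back at 231 and 252 CPM and Snhg15 at 27.4 and 32.0 CPM. Of the 17 genes, 15 were higher at 6 h than at 1 h, against 26.5% of all genes tested.

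Over the annotation, 14 well counted non-coding genes overlapped a snoRNA gene on their strand, of which 9 were lower and none higher, with a median log2 fold change of -0.90, against 14.5% lower among the 984 that did not. The 14 include hosts of the list above, such as Gas5, Snhg1 and Snhg15, so this count is not independent of that list. Among the 12 largest falls were 5 further transcripts without a known role here, Gm16091, Gm20045, Gm26873, 5430416N02Rik and the snoRNA Gm27326, with log2 fold changes from -5.45 to -3.45. Gm26873 runs antisense to Riok2, and since the strand setting of the counting is not given, its reads cannot be told from that gene's. The same 12 held 2 protein-coding genes. Dusp2, a MAP kinase phosphatase, was at 76.6 and 82.4 CPM and then at 3.79 and 6.37 CPM (-3.98 ± 0.18, adjusted p = 1.25e-09). Socs1, an inhibitor of cytokine signalling, went from 16.9 and 15.4 CPM to 1.59 and 1.27 CPM (-3.49 ± 0.17). Both were lower in either 1 h library than in either isosmotic one.

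Immediate-early transcription factors were mostly lower, not higher, after 1 h in high osmolality. Of 25 tested, 18 were lower and 2 higher, with a median log2 fold change of -0.63. Junb, an AP-1 subunit, was at 515 and 525 CPM in isosmotic cells and at 118 and 123 CPM at 1 h (-2.11 ± 0.09, adjusted p = 1.42e-12). Ier2 fell from 157 and 175 CPM to 49.4 and 55.3 CPM, and the synaptic immediate-early gene Arc from 64.4 and 58.3 CPM to 17.7 and 19.5 CPM. In these genes the isosmotic and 1 h libraries did not overlap. Fosl1 and Fosl2 fell by 1.34 and 1.07 on the log2 scale, the orphan receptor gene Nr4a1 by 0.88, Atf3 by 0.80 and Egr1 by 0.63. Fos itself had 15.8 and 17.9 CPM before and 18.9 and 17.2 CPM at 1 h, which did not pass the test (0.10 ± 0.12, adjusted p = 0.581), nor did Fosb (0.07 ± 0.14, adjusted p = 0.764). The 2 that rose were Jun, from 65.6 and 72.5 CPM to 88.5 and 80.1 CPM (0.29 ± 0.08; not called without 1 h replicate 1 or isosmotic replicate 1), and Nr4a2, from 13.7 and 14.3 CPM to 21.9 and 24.2 CPM (0.72 ± 0.11). Without isosmotic replicate 2 the value of Fosb was -0.09, and without 1 h replicate 1 it was -0.01.

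Kruppel-like factors, zinc finger regulators of epithelial growth, gave 10 lower and 2 higher of 14. Klf10 went from 155 and 150 CPM to 39.6 and 41.1 CPM (-1.92 ± 0.08), Klf7 fell by 1.40 and Klf6 by 1.02 on the log2 scale. Klf4 moved the other way, from 14.6 and 13.6 CPM to 29.3 and 29.0 CPM (1.05 ± 0.09, adjusted p = 3.81e-08), and was at 99.2 and 91.3 CPM at 6 h.

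The feedback inhibitors of MAP kinase signalling, which are made in response to that signalling and dampen it, gave 13 lower and none higher by the edgeR test of 18. Dusp5, a nuclear phosphatase of ERK, was at 168 and 176 CPM before and at 38.5 and 42.5 CPM at 1 h (-2.09 ± 0.08, adjusted p = 3.43e-13). Dusp6, its cytoplasmic relative, was at 150 CPM in both isosmotic libraries and at 57.3 and 62.3 CPM at 1 h, and stood at 1118 and 1122 CPM at 6 h. Spry4 and Spry2, inhibitors of receptor tyrosine kinase signalling, fell by 1.90 and 1.35, and Errfi1, an inhibitor of the EGF receptor, by 1.02. Secreted factors upstream of the same pathway fell with them: Lif from 172 and 163 CPM to 43.8 and 50.4 CPM, Hbegf from 387 and 399 CPM to 188 and 200 CPM, and Areg from 9.74 and 10.6 CPM to 3.67 and 3.26 CPM. Of the 16 growth factors tested, 5 were lower and 2 higher.

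Other inducible groups gave mixed or downward counts. Of 18 NF-kB feedback genes and targets 6 were lower (33.3%, against 8.53% of all genes) and none higher by edgeR. Nfkbia, the inhibitor of NF-kB, fell by 0.55 and Tnfaip3 by 0.45. Of 18 chemokines and cytokines 6 were lower and 2 higher: Cxcl1 fell by 0.43 and Ccl2 by 0.50, Cxcl2 rose from 6.68 and 7.88 CPM to 12.4 and 11.5 CPM, and Il6 went from 0 counts in both isosmotic libraries to 45 and 37 counts. Of 11 genes for prostaglandin synthesis and receptors 3 were lower and 2 higher, with a median log2 fold change of -0.09. Ptger4, a prostaglandin E2 receptor gene, fell from 107 and 102 CPM to 26.0 and 24.98 CPM (-2.03 ± 0.08, adjusted p = 4.33e-13), and Ptgs2, which codes for cyclooxygenase 2, from 342 and 300.1 CPM to 219 and 218 CPM. Each gene given by name here except Il6 and Cxcl2 was lower in both 1 h libraries than in both isosmotic libraries.

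Among targets of other pathways, Id1, a BMP target that blocks differentiation factors, went from 236 and 265 CPM to 42.8 and 45.1 CPM (-2.51 ± 0.09, adjusted p = 1.25e-13), while its relative Id3 fell by 0.62. Of 22 YAP and SRF targets 9 were lower and 1 higher (5 higher without isosmotic replicate 1), with Ccn2 falling from 781 and 840 CPM to 280 and 272 CPM and F3, which codes for tissue factor, from 464 and 451 CPM to 189 and 183 CPM. Bhlhe40, a repressor within the circadian clock, fell from 242 and 224 CPM to 57.4 and 58.0 CPM, and 6 of 17 clock genes were lower with none higher by edgeR. Hes1, a Notch target, fell by 1.23, while of 13 Notch and Hes genes 1 was lower and 1 higher. Both isosmotic libraries were above both 1 h libraries in each gene given by name here.

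Regulators of mRNA decay that bind AU-rich elements or recruit deadenylases divided. Btg2 fell from 122 CPM in both isosmotic libraries to 15.2 and 19.5 CPM (-2.82 ± 0.11, adjusted p = 3.45e-13), and Zfp36 from 26.5 and 24.1 CPM to 7.98 and 8.75 CPM. Zfp36l1 rose by 0.31 and Tob1 by 0.73 on the log2 scale. Of 11 tested, 5 were lower (45.5%, against 8.53% of all genes) and 2 higher (18.2%, against 14.3%).

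**Figure D2:**
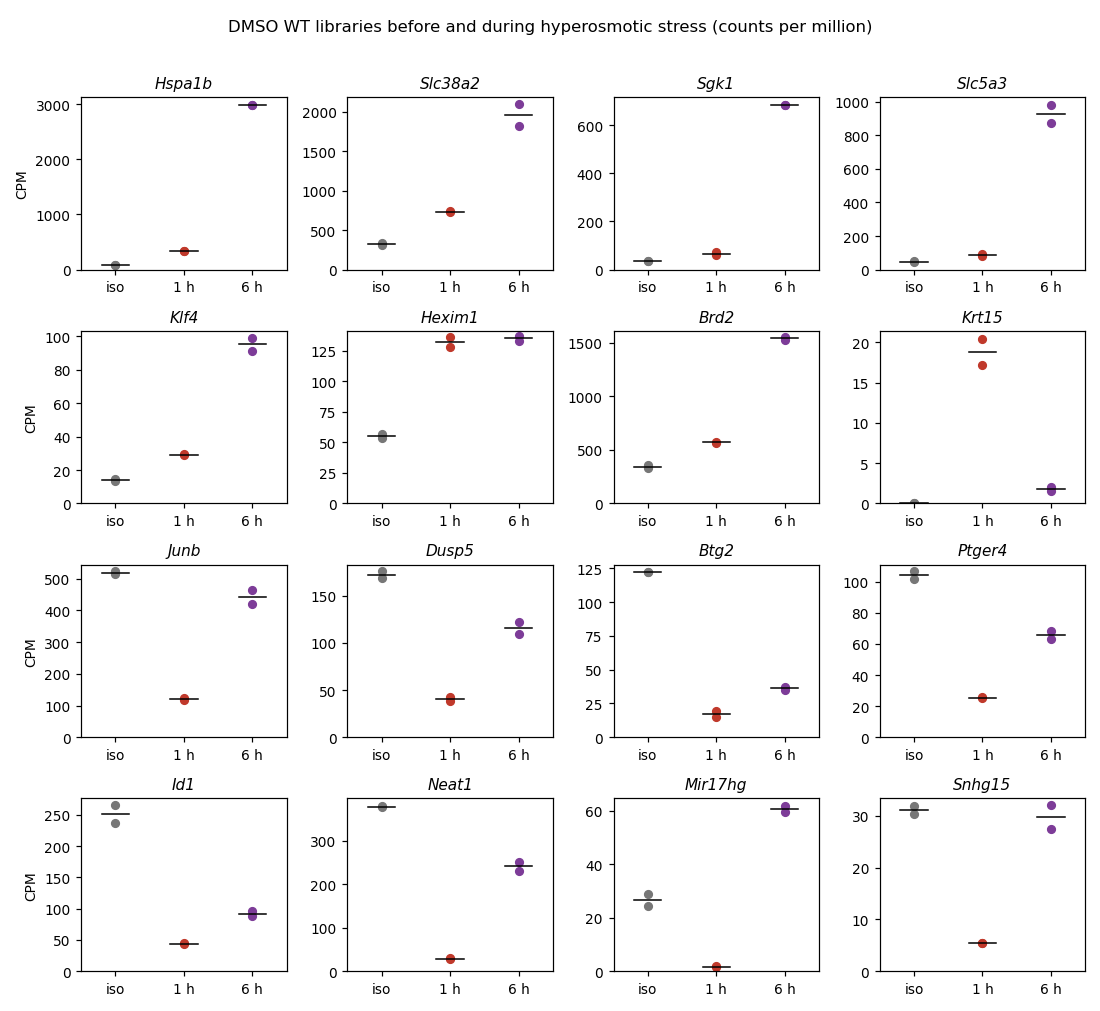
CPM (vertical axes, each from 0) of 16 genes in the isosmotic, 1 h and 6 h DMSO WT libraries, with 1 point per library and a bar at the mean of the 2. In the top row the genes rose by 1 h and further by 6 h, Krt15 is high at 1 h alone, and the genes of the lower rows are lowest at 1 h.

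Of 17 NFAT5 and osmolyte genes tested 10 were higher (58.8%, against 14.3% of all genes) and 1 lower, by amounts that were small beside those at 6 h for the main transporter and enzyme genes. They had a median log2 fold change of 0.55, which includes genes near zero before stress; over the 12 well counted members the median was 0.28. Without single libraries the median over the list lay between 0.25 (without 1 h replicate 1) and 0.90 (without 1 h replicate 2), and without either 1 h replicate 2 or isosmotic replicate 2 there were 6 higher. Slc5a3, the inositol transporter gene, was at 49.2 and 45.9 CPM before and at 90.2 and 83.2 CPM at 1 h (0.87 ± 0.12, adjusted p = 0.000318), and at 982 and 876 CPM at 6 h. Akr1b3, which codes for the aldose reductase that makes sorbitol, went from 338 and 373 CPM to 405 and 421 CPM (0.22 ± 0.06; not called without isosmotic replicate 1 or without 1 h replicate 2), and was at 5522 and 5739 CPM at 6 h. Both 1 h libraries were above both isosmotic ones in either gene, by much less than the 6 h libraries were. The betaine transporter gene Slc6a12 had 0 counts in both isosmotic libraries, 2 and 4 counts at 1 h, and 25.5 and 27.8 CPM at 6 h. The taurine transporter gene Slc6a6 was at 265 and 215 CPM before and 246 and 258 CPM at 1 h, within the isosmotic range (0.07 ± 0.08, adjusted p = 0.544). Nfat5 itself was at 339 and 249 CPM and then at 348 and 345 CPM (0.24 ± 0.17, adjusted p = 0.385).

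Slc38a2, a neutral amino acid transporter gene, moved most among the abundant members of that list after Hspa1b: it was at 331 and 306 CPM before stress and at 740 and 726 CPM at 1 h (1.20 ± 0.09, adjusted p = 2.61e-08). Of 24 amino acid transporter genes 2 were higher, the other being Slc43a1 with 0 counts in both isosmotic libraries and 4 and 7 counts at 1 h. Sgk1, a kinase that promotes sodium transport, went from 37.0 and 37.3 CPM to 71.4 and 59.8 CPM (0.82 ± 0.08). For both genes either 1 h library was well above either isosmotic library. Gdpd5, which breaks down the osmolyte glycerophosphocholine, rose from 10.95 and 11.4 CPM to 21.0 and 21.2 CPM and was at 3.61 and 3.72 CPM at 6 h. Chka, a choline kinase gene, was the member that fell, from 221 and 209 CPM to 133 and 128 CPM (-0.72 ± 0.06), and it stood at 657 and 623 CPM at 6 h.

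Of 34 genes for Na+/K+-ATPase subunits, cotransporters and volume regulation, 9 were higher (26.5%, against 14.3% of all genes) and 2 lower. Of the 34, 5 had at most 3 counts in both isosmotic libraries. Among the 24 well counted members 5 were higher (20.8%, against 11.2% of all well counted genes). Wnk1, a chloride-sensing kinase gene, rose from 536 and 424 CPM to 667 and 674 CPM, and Slc12a2, which codes for the cotransporter NKCC1, from 120 and 97.03 CPM to 139 and 125 CPM, close to the threshold (0.28 ± 0.10, adjusted p = 0.0493) and past it with isosmotic replicate 1 left out but with no other library left out. Lrrc8a, which codes for a subunit of the volume-regulated anion channel that opens in swollen cells, fell from 18.0 and 16.3 CPM to 7.59 and 7.45 CPM (-1.19 ± 0.14).

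Of 29 heat shock chaperone genes 6 were higher and none lower by edgeR (21.4% of the well counted members higher, against 11.2% of all well counted genes), with a median log2 fold change of 0.00; leaving out 1 h replicate 1 or 2 left 3 higher, and without isosmotic replicate 1 there were 5 higher and 3 lower. Hspa1b, an inducible Hsp70 gene, was at 81.5 and 80.2 CPM before and at 333 and 336 CPM at 1 h (2.05 ± 0.06, adjusted p = 1.57e-14), and at 2988 and 2983 CPM at 6 h. Its neighbour Hspa1a rose alike, from 4.08 and 4.41 CPM to 18.7 and 14.6 CPM (1.97 ± 0.14). These genes are near-identical copies, and their promoter windows share 296 of 300 bases, so the split of reads between them is uncertain. Hspa2 rose from 15.4 and 16.7 CPM to 25.3 and 28.3 CPM. Hspa4l and Bag3, a chaperone and a cochaperone gene, rose by 0.28 and 0.25 on the log2 scale, calls that were lost on leaving out any of 3 of the 4 libraries, whereas Dnajb1 had 92.9 and 102 CPM before and 94.4 and 92.8 CPM at 1 h (adjusted p = 0.617). By 6 h Hspa4l had reached 1851 and 1780 CPM from 189 and 163 CPM before stress.

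The ER chaperone gene Hspa5 was at 918 and 977 CPM before and at 960 and 924 CPM at 1 h, with overlapping libraries, and 1 of 20 unfolded protein response genes, Dnajb9, passed the test (0.47 ± 0.12; not without 1 h replicate 2 or isosmotic replicate 2). Of 24 integrated stress response genes 4 were higher (16.7%, near the 14.3% of all genes) and 1 lower. Those that rose included Ddit4, an inhibitor of mTORC1, from 16.7 and 16.9 CPM to 29.1 and 31.4 CPM, and Ppp1r15a, which codes for GADD34, from 69.3 and 72.4 CPM to 102 and 108 CPM. Of 30 Nrf2 targets 8 were lower and 2 higher: Hmox1 went from 71.0 and 82.6 CPM to 51.2 and 53.1 CPM, and Txnrd1 fell by 0.42. Of 21 p53 targets 5 were lower (23.8%, against 8.53% of all genes) and none higher by edgeR, Cdkn1a falling by 0.83. The survival gene Mcl1 fell by 0.42.

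Among regulators of transcription elongation 4 of 21 were higher (19%, against 14.3% of all genes) and 6 lower (28.6%, against 8.53%). Hexim1, an inhibitor of the elongation kinase P-TEFb, rose from 53.6 and 57.0 CPM to 128 and 136 CPM (1.26 ± 0.07, adjusted p = 1e-10), and Brd2, a reader of acetylated histones, from 356 and 334 CPM to 566 and 578 CPM (0.73 ± 0.06). The genes of P-TEFb subunits fell, Cdk9 by 0.29 (not called without 1 h replicate 1 or isosmotic replicate 2) and Ccnt2 by 0.74 on the log2 scale. Of 20 SR protein and CLK kinase genes, which govern splicing, 11 were lower and 1 higher (Srsf12, 0 counts in both isosmotic libraries and 30 and 20 at 1 h): Clk1 went from 56.1 and 53.6 CPM to 29.6 and 27.7 CPM and Srsf5 from 322 and 324 CPM to 188 and 190 CPM. The libraries of the groups did not overlap in any of these genes.

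Apart from genes near zero before stress, rises of over 4-fold were rare. Next to Hspa1b the largest among genes with at least 50 counts before stress were D430018E03Rik (2.20 ± 0.31), Snx32, a sorting nexin gene (2.14 ± 0.22), and Ankrd6 (2.05 ± 0.29). Snx32 had 106 and 76 counts before and 368 and 377 counts at 1 h, and it overlaps Cfl1 on the opposite strand, whose reads could be counted with it. Among genes with over 3 counts in an isosmotic library, the largest called increase was that of Krt15, a basal keratin gene. It had 4 and 5 counts in the isosmotic libraries and 760 and 771 counts at 1 h (7.48 ± 0.30, adjusted p = 6.38e-13), then 2.01 and 1.55 CPM at 6 h against 17.2 and 20.4 CPM at 1 h.

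Genes called higher were longer than those called lower, but those that rose at least 2-fold were not longer than genes not called. The median distance from the first to the last base was 57.2 kb, with 17 exons, for the well counted genes called higher, 11.9 kb with 6 exons for those called lower, and 21.4 kb with 9 exons for those not called. Of well counted genes under 10 kb, 3.73% were higher and 16.8% lower, whereas of those over 100 kb, 25.4% were higher and 2.93% lower. The median log2 fold change went from -0.13 in the shortest class to 0.15 in the longest. In the SFN libraries, which are separate samples, it went from -0.02 to 0.06. Genes that fell at least 2-fold were the shortest, at a median of 6.96 kb and 4 exons, and 55.2% of them coded for protein against 91.3% of the genes not called. Genes that rose at least 2-fold spanned a median of 15.0 kb with 8 exons. The isosmotic libraries themselves differed along this axis: without isosmotic replicate 2 the medians went from -0.07 to 0.09 and 8.51% of the genes over 100 kb were higher, and without isosmotic replicate 1 they went from -0.19 to 0.23 and 34.6% were. Without 1 h replicate 1 or 2 the shares were 12.5% and 10.5%, and of genes under 10 kb 10.2% and 10.9% were lower. Of 40 S phase and G2/M genes 9 were higher and 5 lower, and without isosmotic replicate 2 the counts were 5 and 4. After removal of each library's trend with transcript length and GC content 4708 genes were called. Of the genes called in the main fit 86.3% were kept, 104 were not tested and 11 changed sign. Transcript length is not the span used above, so removal of a trend with span was not tested.

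**Figure D3:**
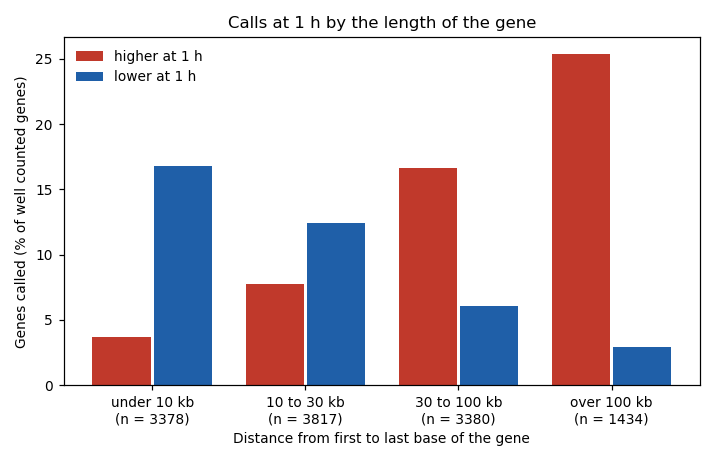
Share of well counted genes called higher (red) or lower (blue) at 1 h, in percent, by the distance from the first to the last base of the gene. The share called higher goes from 3.73% under 10 kb to 25.4% over 100 kb, and the share called lower from 16.8% to 2.93%.

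A further group had almost no reads before stress. Of 35865 genes with at most 3 counts in each isosmotic library, 690 (1.92%) had 10 or more counts in each 1 h library, and 444 of these had 0 counts in both isosmotic libraries. Without 1 h replicate 2 there were 1202, but the rule then rests on 1 library at 1 h and can only admit more genes. The mirror image, at most 3 counts at 1 h and 10 or more in each isosmotic library, held 100 genes, and 183 without 1 h replicate 2. Levels stayed low: the median was 21.8 counts per 1 h library and 84 genes reached a mean of 50. Together they made up 0.0539% of the 1 h counts. Grip2, a scaffold gene of neuronal receptors, had 0 counts in both isosmotic libraries and 183 and 137 counts at 1 h, which is at least 57.1-fold higher when 3 counts per library are taken as the floor. Tat, the liver tyrosine aminotransferase gene, had 0 and 0, then 125 and 123 counts (at least 44.7-fold higher), and Myh3, an embryonic muscle myosin gene, 0 and 0, then 104 and 121 counts (at least 40.9-fold higher). Kcnt1, a potassium channel gene of neurons, Pipox, which codes for a peroxisomal oxidase, and Neurog2, a neuronal transcription factor gene, had at most 3 counts in either isosmotic library and 98 to 225 counts at 1 h. Of the 13 markers of other kidney cells tested, 4 were called higher by edgeR (30.8%, against 14.3% of all genes) and none lower. These were Pecam1 and Pdgfrb and 2 more: Slc12a3 of the distal tubule went from 2 and 0 to 32 and 34 counts and Slc5a2 of the proximal tubule from 0 and 0 to 23 and 23 counts. Of the 13, 4 were near zero before stress. Such genes pass the expression filter only through other libraries and could hardly be called lower. None of the 5 well counted markers was called. Of the 22 markers of such cells, 6 stayed at 0 in all 4 libraries.

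Many of the genes that gained counts lie just behind an expressed gene. Among the 665 with a known position, 19.1% lay within 10 kb beyond the 3′ end of a gene of at least 1 CPM on the same strand, against 2.64% of the 33522 other near-zero genes. Beyond the 3′ end of a gene on the opposite strand lay 22.9% against 3.30%. Before the 5′ end of an expressed gene the shares were closer, 7.67% against 3.42% on the same strand and 4.96% against 3.37% on the opposite strand. On either strand, 39.4% (95% exact binomial interval 35.7 to 43.2%) lay beyond a 3′ end, against 5.64% (5.39 to 5.89%) of the others; genes that neighbour each other are not independent, so these intervals are too narrow. Among protein-coding genes alone the shares were 43.0% and 8.01%. For example, 1700014D04Rik lies 8.66 kb behind Isca1 and Gm38100 lies 6.84 kb behind Exo1 on the same strand, and Grip2 lies 2.44 kb beyond the 3′ end of Slc6a6 on the opposite strand. Krt15, which had just over 3 counts before stress and is not among the 665, lies at chr11:100131758-100135928, 4.88 kb behind Krt19 on the same strand. The genes upstream on the same strand had a median of 50.2 CPM and themselves a median log2 fold change of 0.00. The files hold counts per gene alone, so whether reads span the space between such pairs was not tested.

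**Figure D4:**
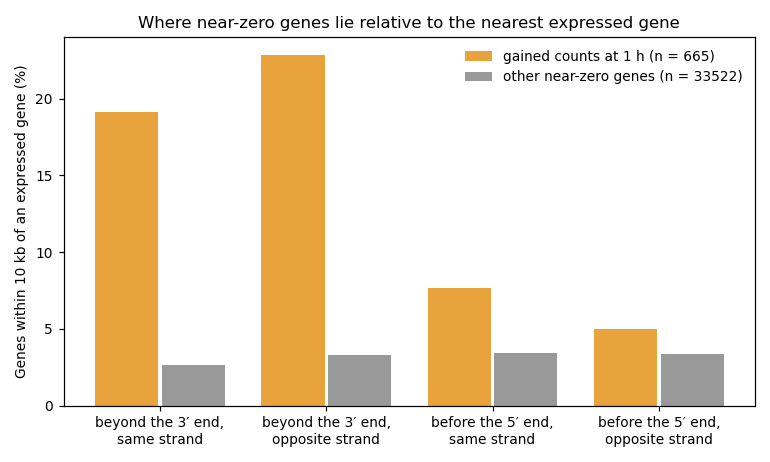
Share of near-zero genes, in percent, that lie within 10 kb of the nearest expressed gene, by the side and strand on which they lie, for genes that gained counts at 1 h (orange, n = 665) and for the other near-zero genes (grey, n = 33522). The orange bars are far above the grey beyond 3′ ends, 19.1% and 22.9% against 2.64% and 3.30%.

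The cells pretreated with SFN were stressed in separate libraries and give a second view of the same genes. Of the 690 genes that gained counts, 516 had at most 3 counts in both isosmotic SFN libraries, 6 had 10 or more in both, and 450 had 10 or more in both SFN 1 h libraries. At 6 h with DMSO 292 had 10 or more in both libraries. Krt15 was at 0.162 and 0.0739 CPM in isosmotic SFN cells and at 11.3 and 14.3 CPM after 1 h. Of the well counted genes called higher with DMSO 76.4% had the same sign with SFN, and of those called lower 77.4%, against 59.3% of all well counted genes that had the same sign in the DMSO and SFN responses. In the same direction 23.4% of the higher and 40.7% of the lower genes were also called. Of all well counted genes, 12.9% were called with SFN in the direction of their DMSO value.

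The size of the response differed between DMSO and SFN, by the interaction term of the edgeR fit, in 585 genes (3.09% of those tested), 364 with a more positive value in SFN and 221 with a more negative one. They included 19 of the 25 immediate-early genes, 10 of the 18 MAP kinase feedback inhibitors, 9 of the 22 YAP and SRF targets and 7 of the 14 Kruppel-like factors, but only 1 of the 17 lncRNA and snoRNA host genes. With all 16 libraries in the fit 109 genes were called. Leaving out DMSO 1 h replicate 1 or 2 gave 312 or 327 and leaving out SFN 1 h replicate 1 or 2 gave 311 or 318, whereas leaving out isosmotic replicate 1 gave 1505 (DMSO) or 1627 (SFN).

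For Junb, Arc and Dusp6, the isosmotic levels differed more between pretreatments than the 1 h levels did. Junb was at 172 and 144 CPM in isosmotic SFN cells, against 515 and 525 CPM with DMSO, and at 130 and 136 CPM after 1 h with SFN, against 118 and 123 CPM. Arc was at 15.1 and 12.8 CPM in isosmotic SFN cells and at 25.7 and 25.9 CPM at 1 h, so that the fall seen with DMSO was a rise with SFN. Dusp6 was at 58.5 and 58.3 CPM before and 56.8 and 56.4 CPM after in SFN cells, near its DMSO level at 1 h. Thus the DMSO isosmotic libraries were the high ones for these genes, and the difference between the isosmotic groups was not itself tested here. The non-coding genes fell strongly with either pretreatment: Neat1 went from 253 and 209 CPM to 25.04 and 24.8 CPM with SFN, Mir17hg from 13.6 and 17.4 CPM to 0.889 and 1.67 CPM, and Snhg15 from 30.5 and 23.0 CPM to 5.88 and 5.46 CPM. For Neat1 and Mir17hg too, both isosmotic DMSO libraries were above both isosmotic SFN libraries. Median log2 fold changes with SFN were -1.09 for the lncRNA and snoRNA host list, 0.24 for immediate-early genes and -0.05 for the feedback inhibitors. With SFN, 11 of the 25 immediate-early genes were called higher at 1 h and 3 lower. Of the 18 feedback inhibitors 2 were higher and 7 lower, and of the 17 lncRNA and snoRNA host genes 1 was higher and 11 lower.

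**Figure D5:**
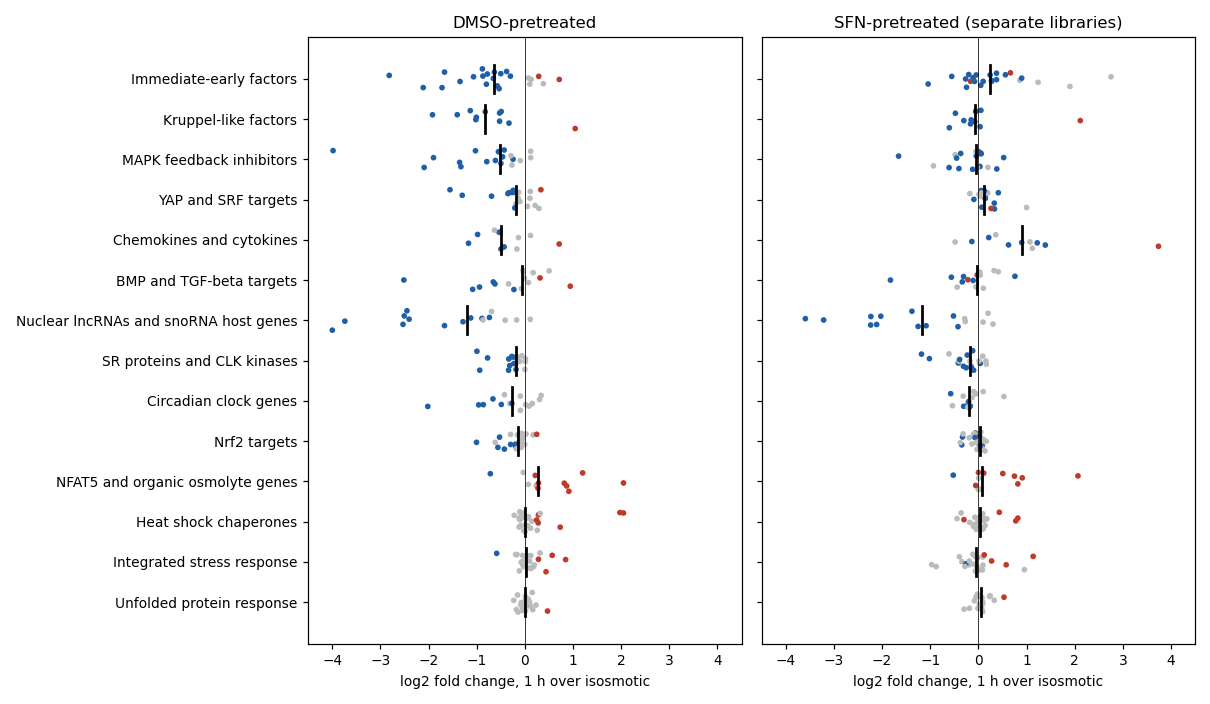
Log2 fold change at 1 h over isosmotic (horizontal axes) of the well counted members of 14 gene lists with DMSO (left) and SFN (right); each point is a gene, coloured in both panels by its call with DMSO (red higher, blue lower, grey not called), and bars mark medians. With SFN the median is 0.24 for the immediate-early list and -0.05 for the feedback list, with single genes on either side such as Arc at 0.90 and Dusp2 at -1.66, while the blue points of the lncRNA and snoRNA host list stay below 0 in both panels.

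Promoter sequences were searched for 7 motifs, on both strands. Among RefSeq windows from 250 bases before to 50 after a start site (GRCm38.p6), the cAMP response element TGACGTCA was found in 2.03% of all promoters, in 3.91% of those of well counted genes called lower, in 2.53% of those called higher and in 3.94% of those not called. The share among fallen genes was thus close to that of genes not called. The CArG box, the binding motif of SRF, was in 1.81% of all promoters and in 1.96%, 1.87% and 1.49% of the same 3 sets. TonE, the binding motif of NFAT5, was searched as a loose pattern. It held a spacer of 2 or 3 free bases and allowed a choice of bases at other positions. Matches were in 32.1% of all promoters and in 36.6% of those called lower, 28.5% called higher and 34.6% not called. With a pattern this loose, these shares do not show how common NFAT5 sites are in each set. The AP-1 site TGANTCA was in 8.97% of all and in 7.72%, 4.68% and 5.63% of the same sets, and the antioxidant response element TGACNNNGC in 13.99% and in 18.2%, 16.4% and 17.0%. The NF-kB site was in 10.7% of all and in 17.7%, 15.2% and 14.2%, and the heat shock element in 0.66% and in 0.31%, 0.19% and 0.63%. The heat shock element was searched as a single strict pattern, which had no match in the windows of Hspa1b or Hspa1a. Its low shares therefore do not show that such elements are rare in these sets. No test was made of these shares. To show what such matches look like in genes that fell, the 250 bases before the start site are shown for a coding and a non-coding gene with the cAMP response element in capitals, and for Dusp5 with its 2 adjoining CArG boxes in capitals; a match is a description of letters, not a site of binding.
Btg2 (chr1:134079156-134079405, minus strand): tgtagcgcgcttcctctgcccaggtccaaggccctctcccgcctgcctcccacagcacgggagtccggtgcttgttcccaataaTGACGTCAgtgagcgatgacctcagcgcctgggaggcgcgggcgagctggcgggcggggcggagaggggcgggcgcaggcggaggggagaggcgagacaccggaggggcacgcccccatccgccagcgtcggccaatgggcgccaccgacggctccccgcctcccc
Snhg15 (chr11:6528761-6529010, minus strand): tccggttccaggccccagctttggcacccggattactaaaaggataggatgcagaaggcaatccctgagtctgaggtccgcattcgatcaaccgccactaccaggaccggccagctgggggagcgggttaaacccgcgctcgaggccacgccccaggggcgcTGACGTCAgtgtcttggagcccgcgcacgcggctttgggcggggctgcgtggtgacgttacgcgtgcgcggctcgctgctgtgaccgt
Dusp5 (chr19:53528895-53529144, plus strand): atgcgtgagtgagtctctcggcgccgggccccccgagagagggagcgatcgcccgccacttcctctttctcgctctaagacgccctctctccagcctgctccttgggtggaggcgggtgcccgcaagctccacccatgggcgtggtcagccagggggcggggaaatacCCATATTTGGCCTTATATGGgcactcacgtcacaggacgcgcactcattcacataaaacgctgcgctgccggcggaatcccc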

How the data were processed

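Total RNA of mIMCD3 cells was sequenced in 16 libraries, 2 for each of 8 conditions. The authors deposited raw read counts per gene symbol, 1 file per library, without normalization. They counted with FeatureCounts on mm10 and name Hisat2 as aligner, while the submitters' processing notes name Bowtie2. Versions, annotation release, strand setting and the handling of shared reads are not given in the sources used here, so reads shared between copies or overlapping genes can be split or lost. One label field on extraction names primary cells, all others mIMCD3. Groups and replicate numbers come from the labels.

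Counts were tested with edgeR 4.0.16 (R 4.3.3; TMM scaling, filterByExpr, robust quasi-likelihood F-test) on the 12 WT libraries, with 1 coefficient for each of 6 conditions and Benjamini-Hochberg adjustment over all genes tested at 0.05. The Nrf2-/- libraries were left out of this fit because earlier results of these data had shown a wide spread between the Nrf2-/- SFN 1 h libraries, whose coefficient of variation was 0.331 here. SE is the log2 fold change over the root of F. CPM are counts per 1000000 of the library total scaled by TMM. Summed levels of lists and the levels of neighbouring expressed genes used library totals without TMM. With 2 libraries per condition, which the study calls biological replicates while the labels do not say that they are separate cultures, p-values measure the spread between these libraries, which may be technical, and an exact permutation test could not go below 0.333. The test was checked on simulated data. Near zero means at most 3 counts in each isosmotic library, and gained means 10 or more in each 1 h library. Fold bounds take 3 counts per library as floor. Intervals cover counting error only. No 2 libraries held identical values.

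Genes named are the 12 largest increases and decreases among called, well counted genes without overlap between groups, the 8 highest gained genes, and list members, of which those given with values were picked after the values were seen. Because the 12 increases were nearly all near zero before, the largest among genes with a mean of 50 or more counts before stress were added after seeing the data, as were the microRNA hosts, the length trend removal and the leaving out of libraries for lists. The genes and lists were chosen with earlier results of these data known. Positions are from GENCODE M21 (GRCm38), matched by symbol for 53186 of 55367 genes, and promoters and microRNAs from RefSeq. Alternatives were DESeq2 1.42.0, other scaling and filters, other sets of libraries, a replicate block, a 2-fold threshold and other count limits.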

Additional observations from a re-analysis of the deposited data

Results flagged for a closer look

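The 1 h response differed between SFN and DMSO cells in 585 genes by the interaction term of the edgeR fit. Among them were 67 of the 157 genes named in the text, of which 51 had a negative log2 fold change with DMSO and a less negative or positive one with SFN. Many named genes were picked by their change with DMSO, and the interaction term contains that same change from the same libraries. The 67 and the 51 are therefore not independent of how the genes were picked. The values that follow are log2 fold changes with SFN minus those with DMSO.

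Among immediate-early and Kruppel-like factors, the response was more positive with SFN for Arc (2.62), Junb (1.86), Fosb (1.83), Klf10 (1.44), Klf7 (1.33), Fosl1 (1.23), Atf3 (1.17), Nr4a1 (1.16), Fos (1.14), Ier2 (1.11), Klf4 (1.07), Klf6 (1.07), Fosl2 (0.86), Myc (0.86), Klf5 (0.77), Egr1 (0.73) and Srf (0.65), and more negative for Jun (-0.45). Among feedback inhibitors it was more positive for Dusp2 (2.32), Dusp5 (1.72), Errfi1 (1.41), Socs1 (1.33), Spry4 (1.29), Dusp6 (1.28), Spry2 (0.95) and Dusp1 (0.66). The same held for the NF-kB inhibitors Nfkbia (1.41) and Tnfaip3 (1.05).

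Among secreted factors, receptors and enzymes of inflammation the difference was 3.02 for Cxcl2, 1.97 for Ptger4, 1.94 for Lif, 1.82 for both Areg and Cxcl1, 1.55 for Gdf15, 1.39 for Ccl2, 1.37 for Edn1, 1.36 for Hbegf and 1.18 for Ptgs2. Among mRNA decay factors it was 1.77 for Btg2, 0.74 for Zfp36 and 0.52 for Zfp36l1. Among targets of BMP, YAP, SRF, Notch and the clock it was 1.83 for Bhlhe40, 1.63 for F3, 1.62 for Ccn2, 1.54 for Hes1, 0.83 for Ankrd1, 0.71 for Ccn1 and 0.68 for Id1, and -0.55 for Notch1.

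Genes that rose with DMSO and had a more negative value with SFN included the chaperone genes Hspa1a (-1.54), Hspa1b (-1.23) and Bag3 (-0.55), the inositol transporter gene Slc5a3 (-0.76), Snx32 (-1.37) and 1700014D04Rik (-5.96), while the value of Sgk1 was more positive with SFN (1.25). Of the epithelial markers the difference was 0.92 for Krt7, 0.77 for Epcam, 0.68 for Krt18 and -0.36 for Pax2. Further differences were found for Cdkn1a (0.97), Mir22hg (0.91), Ell (0.58), Neat1 (0.52), Txnrd1 (0.51), Mcl1 (0.38) and Srsf5 (0.36).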

How the results depend on the processing

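Of the 157 named genes, 156 kept direction and call with DESeq2, which called 4116 genes, and 157 with RLE scaling, and no called gene of the comparison changed sign with either. With all 16 libraries, 2186 genes were called, 1385 higher and 801 lower (well counted 387 and 577), and 109 differed between SFN and DMSO. Requiring 10 counts in every library left 2610 called and 1507 higher, in part because 1632 called genes were no longer tested. Tested against a 2-fold change, 1154 were called, 917 higher and 237 lower (well counted 106 and 105), 20 differed between SFN and DMSO and 2560 between 6 h and 1 h. The difference between SFN and DMSO held 1156 genes without a filter and 1026 with the length and GC trend removed, where the cause was not tested. Leaving out each library in turn gave 2457 to 4459 called, 1328 to 2746 higher, 914 to 1713 lower, 592 to 1682 well counted higher, 739 to 1500 well counted lower, 311 to 1627 differing between SFN and DMSO, and 872 to 1202 near-zero genes that gained counts. For the near-zero genes an omission also relaxes the rule, so their count can only rise from 690. The mirror image rose as well, from 100 to between 183 and 240. With other limits the near-zero genes that gained counts were 444 (0 counts before), 1256 (at most 10 before) and 293 (20 or more at 1 h), and the share beyond a 3′ end was 22.1% within 5 kb and 91.3% within 50 kb (3.13% and 20.9% of the other near-zero genes).

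Uncalled genes near 0 changed sign. Hspa5 was at 0.0078 with library totals, 0.015 with the filter at 10 counts, 0.014 without 1 h replicate 2, 0.035 without isosmotic replicate 2 and 0.029 with the trend removed, and ran from -0.060 to 0.035 over the omitted libraries. Fosb was at -0.0072 without 1 h replicate 1 and -0.092 without isosmotic replicate 2, and at most at 0.25 without isosmotic replicate 1. Dnajb1 was at 0.0099 and Slc6a6 at -0.071 without isosmotic replicate 2, and at 0.017 and -0.050 with the trend removed, and their values without isosmotic replicate 1 were -0.13 and 0.23.

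Equal replicate numbers did not pair the samples: over 15 pairs of conditions the correlation of deviations ran from -0.298 to 0.168, and 3 were over 0.1. With the replicate number as a block, 4071 genes were called, 2545 higher and 1526 lower, 503 differed between SFN and DMSO, and no call among the named genes changed.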

Other observations

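Genes of the Bcl2 family, which set the threshold of cell death, gave 6 lower and 1 higher of 18 by edgeR (33.3% lower, against 8.53% of all genes). Bbc3, which codes for the death-promoting protein Puma, fell by 1.28 on the log2 scale, Bok by 0.50 and Bcl2l1, which codes for the survival protein Bcl-xL, by 0.45. Members that promote and members that block death thus fell in the same comparison. Of 14 genes for glucose uptake and its first steps 3 were lower and 1 higher, with Hk2, a hexokinase gene, falling by 0.44 and Slc2a1, a glucose transporter gene, by 0.34. Of 25 genes of cholesterol synthesis 3 were lower (12%, near the 10.8% of all well counted genes) and 1 higher. Of 20 BMP and TGF-beta targets 6 were lower and 4 higher: Tgif1 and Skil, repressors of TGF-beta signalling, fell by 0.94 and 0.65, and Grem1, which codes for a secreted BMP antagonist, rose by 4.88 from a low level. These genes beyond the lists' counts were picked after their values were seen.

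Of 71 cytosolic ribosomal protein genes 10 were lower (14.1%, near the 10.8% of all well counted genes) and 1 higher, and 9 of the 10 falls ran from 0.21 to 0.55 on the log2 scale. The isosmotic libraries differed here. The summed level of the list was 49466 and 57399 CPM in isosmotic replicates 1 and 2 and 48563 and 48278 CPM at 1 h, scaled by library totals alone. The median log2 fold change was -0.18 with DMSO and 0.12 with SFN. Rps10 fell from 437 and 573 counts to 84 and 62 counts (-2.68). It overlaps RPS10-NUDT3 on its strand and Gm15420 on the other, and the part of shared reads in this value was not tested. The gene that rose was the muscle paralog Rpl3l, with 7 and 0 counts before and 177 and 195 counts at 1 h.

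Of the 690 genes that gained counts with DMSO, 345 had 10 or more counts in both Nrf2-/- SFN 1 h libraries and 12 in both Nrf2-/- SFN isosmotic libraries.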
